A study of Rattus norvegicus with 12 samples.

Results

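After the operation, 148 genes of rat intestine stood above both kinds of preoperative sample in every library. They were chosen from the counts themselves: 13 accessory gland genes were dropped, counts were scaled to CPM (a gene's share of the remaining library total, set to the same sum in every library), and a gene was kept where its lowest value among the 4 postoperative libraries exceeded its highest value among all 8 baseline libraries and was 0.5 CPM or more. A total of 154 of 18736 genes (0.822%) met this rule, and the macrophage genes Spp1, Mmp12, Ctsk, Trem2, Clec7a and Apoe were then set aside, which left 148 of the 18749 genes in the count table. The difference between postoperative and baseline samples is therefore what chose these genes, and it is described here without a test.

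The series asks how the small bowel adapts when the whole colon is taken out. Polyadenylated RNA was sequenced from 12 intestine samples of WT rats, all in batch 1, in 3 groups of 4. The group postSTC is labelled postoperative (replicates 1, 2, 5 and 7), preSTC preoperative, and preCTC as sampled ahead of a sham procedure (replicates 1, 5, 7 and 9 each). The labels name no bowel segment, age or days since operation, they do not tie replicates to separate animals, and samples taken once the sham procedure was over were not analysed here, so operation and elapsed time cannot be told apart. The baselines also differed from each other, with the epithelial marker Vil1 at 1902 to 2408 CPM in preSTC and 376.8 to 655.6 CPM in preCTC. In a fold over preCTC, operation and a difference in the tissue sampled cannot be told apart.

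After part of the gut is removed, the remaining bowel faces new luminal contents, wound repair at the join and inflammation of the fat and serosa around it. Macrophages that take up lipid and debris fill their lysosomes and express surface lectins and glycoproteins, activated endothelium displays selectins that slow passing leukocytes, and stromal cells secrete proteins that bind Wnt and bone morphogenetic protein ligands. Mature enterocytes carry disaccharidases and sugar transporters on the brush border, and these genes are normally high in the small intestine and low in the colon.

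Libraries held 30095656 to 39374682 counts. In postSTC7, 44.8% of counts came from the 13 accessory gland genes, which take part in making seminal fluid, and postSTC7 stands apart for this reason. The same genes took 0.0183 to 0.0253% in the other postSTC libraries and in preSTC7, and 1 to 11 counts in each of the remaining 7 libraries. The 7 intestinal epithelial markers Vil1, Cdx2, Cdh17, Lgals4, Epcam, Muc2 and Krt20 were present in every library, with a summed level from 6214 CPM in postSTC7 to 17640 CPM in preCTC5. Values are given in replicate order, 1, 2, 5 and 7 for postSTC and 1, 5, 7 and 9 for each baseline.

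Genes that stood above a single baseline were far more common than genes above both. In every postSTC library, 2339 genes were above all of preSTC and 1112 above all of preCTC, at 0.5 CPM or more, while the reverse of the rule, below all 8 baseline libraries, held for 126 genes (0.673%). The same rule turned on the other groups was met by 753 genes in preSTC (4.02%) and by 1326 in preCTC (7.08%), so more genes stood above both other groups in either baseline than after operation. In edgeR's quasi-likelihood test 164 of 15704 genes (1.04%) were higher in postSTC than in both baselines at a Benjamini-Hochberg adjusted p under 0.05, and 60 (0.382%) were lower than in both. With the replicate number as a block these counts were 84 and 37. Of the 148 genes, 82 were among the 164 and 46 among the 84, and all 148 passed the filter on low counts. That overlap follows from the shared contrast and supports nothing further.

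The size of the gap ranged from a few percent to several orders of magnitude. Mean postSTC level over mean preSTC level was 1.075 at the lowest, 2.20 at the median and 334 at the highest, and over preCTC it was 1.07, 2.16 and 8209. On the log2 scale the medians were 1.14 and 1.11, against 0.145 and -0.0207 over the 18177 genes with postoperative counts. At least 2-fold over both baseline means were 71 genes, at least 5-fold 31, and 32 lay under 1.5-fold over both. Without postSTC7 in the mean, 64 of the genes were at least 2-fold over both. Levels were modest for most: 33 genes averaged under 5 CPM in postSTC, 70 between 5 and 50 CPM, and 45 above that.

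**Figure D1:**
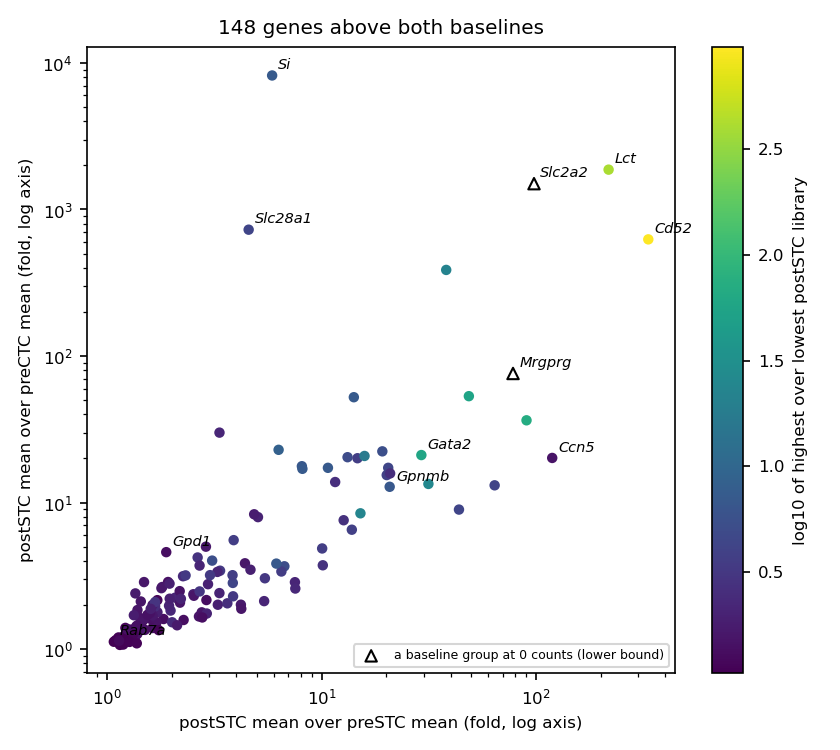
Each point is 1 of the 148 genes, with the mean postSTC level over the mean preSTC level on the x axis and over the mean preCTC level on the y axis, both as folds on log axes; colour gives the log10 ratio of the highest to the lowest postSTC library, and triangles mark genes with no count in a baseline group, drawn at a lower bound. Most genes sit under 10-fold on both axes, Si and Slc28a1 lie far above the diagonal, and the brightest point is Cd52, whose level rests on 1 library.

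The distance between the groups was small for most of these genes. The lowest postSTC library exceeded the highest baseline library by a factor of 1.10 at the median; the excess was under 5% for 49 genes, and the factor was 2 or more, or against a baseline of 0, for 16. The highest baseline library belonged to preSTC for 70 genes and to preCTC for 78. Just inside the rule were Fbxo8 at a factor of 1.0002, Cpne7 at 1.0014, Arpp19 at 1.003 and Ubxn8 at 1.0035. Just outside were Jade1 at 0.99949, Pdrg1 at 0.99915, Spryd3 at 0.99899 and Fkbp1a at 0.99783. Many genes at this edge changed side with another scaling: with trimmed mean of M values (TMM) factors 144 genes met the rule, 109 of them among the 148, and none of the 39 that dropped out had a factor above 1.12. All 50 genes with a factor of 1.2 or more stayed. Across 17276 genes with counts in all groups, the median log2 ratio to preSTC was 0.14 with these CPM values and 0.03 with TMM, and to preCTC it was -0.02 and 0.02.

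By role, 87 of the 148 genes fell into 8 groups drawn up after their values had been seen. Leukocyte receptors and signalling genes (11 genes) had a median of 11.6-fold over preSTC and 12.8-fold over preCTC, and 10 of them were at least 2-fold over both. Cd52 was among these 10, and without postSTC7 its mean was 1.57-fold preSTC and 2.95-fold preCTC. Secreted signals and matrix proteins (13 genes) had medians of 4.85-fold and 4.22-fold, and 7 brush border and enterocyte genes 14.1-fold and 728-fold. Enzymes and solute carriers (20 genes) had medians of 2.44-fold and 3.08-fold, 9 transcription factors 2.76-fold and 2.86-fold, and 6 signal receptors 2.83-fold and 4.09-fold. The 2 endothelial selectins had medians of 18.4-fold and 18.3-fold. Genes of vesicle traffic, autophagy and ubiquitin transfer (19 genes) were the flattest group, with medians of 1.28-fold and 1.26-fold and none at 2-fold over both. The remaining 61 genes had medians of 1.69-fold and 1.75-fold, and 19 of them reached 2-fold over both.

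The macrophage gene Gpnmb was the most abundant of the leukocyte genes outside postSTC7. It encodes a glycoprotein of the lysosome and surface of phagocytes. Gpnmb measured 157, 459, 582 and 87.0 CPM in postSTC, 11.2, 19.1, 21.0 and 10.6 CPM in preSTC and 31.7, 13.5, 32.2 and 22.9 CPM in preCTC. The group mean was 321 ± 237 CPM (SD, n = 4) after operation against 15.5 ± 5.34 and 25.1 ± 8.81 CPM, 20.8-fold and 12.8-fold. Replicates 2 and 5 were the highest, and the lowest, replicate 7, was 2.70 times the highest baseline library. In bulk tissue, more cells of a type and more RNA per cell cannot be told apart.

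Surface receptors of myeloid cells were also highest in replicates 2 and 5. Lilrb4, an inhibitory immunoglobulin-like receptor, measured 4.42, 15.3, 19.2 and 4.92 CPM in postSTC, 0.649, 0.951, 0.264 and 0.28 CPM in preSTC and 0.555, 0.305, 0.768 and 0.912 CPM in preCTC. Clec4e, the C-type lectin also called Mincle that senses mycobacterial and damage-derived glycolipids, measured 1.20, 6.45, 5.44 and 1.93 CPM in postSTC, 0.198, 0.185, 0.344 and 0.0559 CPM in preSTC and 0.175, 0.249, 0.247 and 0 CPM in preCTC. Olr1, a scavenger receptor for oxidised low-density lipoprotein, measured 3.92, 9.79, 9.80 and 3.73 CPM in postSTC, 0.282, 0.449, 0.952 and 0.671 CPM in preSTC and 0.263, 0.388, 0.631 and 0.691 CPM in preCTC. In all 3 the libraries postSTC2 and postSTC5 were high and postSTC1 and postSTC7 low. That no postSTC value overlapped a baseline follows from the rule. Mean levels were 20.5-, 19.2- and 11.6-fold those of preSTC, and 17.3-, 22.4- and 13.8-fold those of preCTC.

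Tm4sf19, a membrane protein gene picked here after its values were seen, was under 0.5 CPM in every baseline library. It measured 1.03, 7.51, 12.2 and 0.552 CPM in postSTC, 0.339, 0.0528, 0 and 0.168 CPM in preSTC and 0, 0.0277, 0.0274 and 0 CPM in preCTC, where 2 counts were found in all. Postoperative libraries 2 and 5 again lay far above libraries 1 and 7. Siglec1, the sialic acid receptor of tissue macrophages, was nearer its baseline, at 5.09, 9.55, 15.1 and 11.5 CPM in postSTC, 4.07, 3.91, 4.23 and 3.08 CPM in preSTC and 4.03, 3.43, 4.28 and 4.92 CPM in preCTC. Its postSTC1 library lay just above preCTC9. Cxcr2, the neutrophil receptor for CXC chemokines, was scarce throughout, at 0.764, 1.06, 1.64 and 0.966 CPM in postSTC, 0.0559 to 0.555 CPM in preSTC and 0.222 to 0.497 CPM in preCTC. Siglec5, another sialic acid receptor and outside the naming rule, ranged from 7.82 to 12.2 CPM after operation and reached at most 6.10 CPM at baseline.

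Among the 6 macrophage genes set aside by the rule, replicates 2 and 5 were the highest postSTC libraries for all but Apoe. Spp1, the secreted phosphoprotein osteopontin, measured 161, 173, 333 and 40.2 CPM in postSTC and 0.582 to 4.05 CPM at baseline. Apoe, the lipid carrier apolipoprotein E, had its highest postoperative level, 1133 CPM, in postSTC7. Of 34 genes of macrophage lysosome and lipid handling, Gpnmb alone was among the 148 (2.94%, against 0.822% of all genes under the rule). Of 31 macrophage receptors Lilrb4, Clec4e and Siglec1 were (9.68%). The summed level of the first list was 5169, 10200, 10740 and 5068 CPM in postSTC, 4694 to 6963 CPM in preSTC and 4644 to 5369 CPM in preCTC, with Marco at 0 in all baselines. The summed receptor list was 352, 792, 919 and 512 CPM in postSTC, 370.1 to 476 CPM in preSTC and 540.2 to 729 CPM in preCTC, so it overlapped both. The part of these lists in the leukocyte genes was not tested.

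Promoters of Gpnmb, Olr1 and Tm4sf19 and of the cytokine receptor gene Osmr hold an AP-1 match. They are shown here because AP-1, the Fos and Jun dimer, is a general factor of activated phagocytes and stroma. The sequences are from RefSeq on GRCr8, 5′ to 3′ on the gene's strand, with the match in capitals and 24 flanking bases to each side where the window allows.
Gpnmb: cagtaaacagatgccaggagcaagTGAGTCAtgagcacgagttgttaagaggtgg
Olr1: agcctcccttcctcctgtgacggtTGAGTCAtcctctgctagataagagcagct
Tm4sf19: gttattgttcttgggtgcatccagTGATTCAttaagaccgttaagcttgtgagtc
Osmr: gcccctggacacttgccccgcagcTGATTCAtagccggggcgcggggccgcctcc
These windows are chr4:79341017-79341071 on the plus strand for Gpnmb, and on the minus strand chr4:164634548-164634601 for Olr1, chr11:81889796-81889850 for Tm4sf19 and chr2:57688564-57688618 for Osmr. The match begins 87, 30, 180 and 33 bases before the annotated start. All are upstream of the transcript, and these 4 genes were picked for display after the search.

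The motif TGANTCA, searched on both strands from 250 bases before to 50 after the start, was in 11 of the 123 member promoters in the RefSeq table (8.94%), against 7.33% of 27457 promoters and 5.27% of the 11384 whose genes reached 0.5 CPM in every postSTC library. None of the 11 matches overlapped another motif searched. The PU.1 motif GAGGAAG, bound by a factor of the myeloid lineage, was in 25 promoters (20.3%, against 12.4% and 13.4%), Gpnmb and Olr1 among them, and 1 of its 28 matches overlapped a TEAD motif. The TEAD motif GGAATG was in 15.4% (13.9% and 11.3%), the TATA box TATAAA in 9.76% (14.3% and 7.33%), the NF-kB motif in 55.3% (48.5% and 64.9%), the ETS motif CCGGAAG in 12.2% (9.22% and 16.6%) and the Sp1 motif GGGCGG in 49.6% (34.9% and 59.9%). The CArG box of SRF was in 1 promoter, that of Tafa3 (0.813%, against 1.64% and 1.34%). The E-box TCACGTG, added after the values were seen, was in 6 (4.88%, against 3.43% and 5.27%). A match is a string of letters and not a site shown to be bound.

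Among secreted signals, both Wnt-binding proteins on the list were genes of low baseline. Sfrp4, a secreted frizzled-related protein that binds Wnt ligands outside the cell, measured 10.0, 17.0, 22.9 and 5.48 CPM in postSTC, 0.0565, 0.0528, 0.503 and 0.252 CPM in preSTC and 0.906, 1.22, 0.658 and 1.44 CPM in preCTC. Its mean was 64.1-fold that of preSTC and 13.1-fold that of preCTC, and its postSTC libraries lay well clear of both. Wif1, the Wnt inhibitory factor, measured 1.36, 2.15, 1.43 and 94.9 CPM in postSTC, 0.424, 0.0792, 0.212 and 0.391 CPM in preSTC and 0.643, 0.582, 0.494 and 1.02 CPM in preCTC. A single library, postSTC7, carried nearly all of it: the mean was 90.3-fold and 36.4-fold the baselines with it and 5.96-fold and 2.41-fold without it. Of 26 Wnt ligands and modulators in the table these 2 (7.69%) were members, against 0.822% of all genes under the rule, and the other 24 were not.

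Ccn5, a matricellular protein made by stromal and muscle cells, was even across the postoperative libraries. It measured 3.69, 5.55, 4.21 and 5.61 CPM in postSTC, 0.0282, 0.132, 0 and 0 CPM in preSTC and 0.0877, 0.72, 0.11 and 0.0276 CPM in preCTC. The postSTC libraries lay within a factor of 1.52 of each other, 119-fold the preSTC mean and 20.2-fold the preCTC mean, and preCTC5 held most of the preCTC counts. Bmper, which binds bone morphogenetic proteins in the matrix, measured 4.85, 8.92, 10.4 and 3.13 CPM in postSTC, with 2.15, 1.80, 2.70 and 2.40 CPM in preSTC and 1.14, 2.77, 1.62 and 3.01 CPM in preCTC. Its lowest postSTC library, replicate 7, stood only just above preCTC9. These were the only members among 34 genes of activated fibroblasts and TGF-beta signalling (5.88%, against 0.822% of all genes under the rule). None of 22 collagens, 36 matrix glycoproteins, 18 crosslinking enzymes or 26 matrix proteases and inhibitors was a member. A count of 0 in lists of this size is near background, since few genes in all met the rule. Without postSTC7, Inhba, Inhbb and Lrrc15 of the fibroblast list would have met it too, and with TMM Tgfbr1 did. Without that library, Thbs2 and Cthrc1 of the matrix glycoproteins and Bmp1 of the crosslinking list would have.

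The cytokine and cytokine receptor genes were Il1rn, Il36b and Osmr. Il1rn, the interleukin-1 receptor antagonist, measured 40.0, 76.8, 97.7 and 34.6 CPM in postSTC, 20.6, 28.9, 15.9 and 28.8 CPM in preSTC and 13.3, 9.58, 22.3 and 13.9 CPM in preCTC. Replicates 2 and 5 were high and replicates 1 and 7 close to the upper preSTC libraries. Il36b, an interleukin-1 family cytokine of epithelia, measured 7.31, 7.38, 3.36 and 3.73 CPM in postSTC, 0.847, 2.19, 1.27 and 2.21 CPM in preSTC and 0.146, 0.138, 0.137 and 0.304 CPM in preCTC. Its order differed, with replicates 1 and 2 high. Il36b and Il1rn are neighbours in the interleukin-1 cluster, with 2 genes of the table between them. Osmr, the oncostatin M receptor of stroma and epithelium, measured 17.3, 20.7, 26.4 and 17.0 CPM in postSTC, 16.5, 15.1, 13.4 and 9.76 CPM in preSTC and 15.2, 13.8, 10.5 and 11.5 CPM in preCTC, a margin so thin that it no longer met the rule with TMM. Il1rn and Osmr were the members among the 32 listed cytokines and cytokine receptors (6.25%, against 0.822% of all genes under the rule), and none of 32 chemokines or 34 growth factors and receptors was.

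Some hormone and transmitter genes showed clear gaps at low levels. Dio3, the deiodinase that inactivates thyroid hormone, measured 1.10, 2.07, 3.19 and 0.874 CPM in postSTC, 0.226, 0.132, 0.106 and 0.028 CPM in preSTC and 0.0292, 0.138, 0.137 and 0.0552 CPM in preCTC. It had replicates 2 and 5 on top, as did Psca, a lipid-anchored surface protein, at 1.46, 3.77, 4.04 and 1.56 CPM in postSTC, 0.0792 to 0.311 CPM in preSTC and 0.276 to 0.411 CPM in preCTC. Mrgprg, a receptor of the family found on sensory neurons and mast cells, had no count in any of the 8 baseline libraries and measured 1.20, 1.54, 2.63 and 1.01 CPM in postSTC. Against a floor of 3 counts over each baseline group its mean was at least 78.1-fold higher than preSTC and at least 76.0-fold higher than preCTC. None of 27 enteric neuron genes in the table was a member, which is near the background of 0.822% of all genes. Of receptors outside the naming rule, the secretin receptor Sctr measured 4.95, 13.5, 18.6 and 2.76 CPM in postSTC and at most 1.64 CPM at baseline, and Ffar3, a receptor for short-chain fatty acids, 1.99, 3.26, 2.11 and 2.81 CPM and at most 1.40 CPM.

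The vessel genes among the members were the selectins. Sele, E-selectin of activated endothelium, measured 0.598, 1.54, 1.11 and 0.69 CPM in postSTC, 0.0565, 0, 0.132 and 0 CPM in preSTC and 0.0292, 0.0277, 0.165 and 0.0276 CPM in preCTC. At these levels the 4 postSTC libraries held 129 counts in all, against 7 and 9 in the baselines. Selp, P-selectin of platelets and endothelium, measured 3.76, 3.98, 8.31 and 65.4 CPM in postSTC, 0.593, 2.51, 1.11 and 0.923 CPM in preSTC and 0.906, 1.30, 0.877 and 0.8287 CPM in preCTC. By the rule Selp stood above every baseline in replicates 1, 2 and 5 as well. In postSTC7 it was far higher still, so its mean was 15.9-fold preSTC with that library and 4.17-fold without it. Sele and Selp were the members among 30 endothelial genes (6.67%, against 0.822% of all genes under the rule). The summed level of the 30 was 632, 1112, 1175 and 807 CPM in postSTC, 573.7 to 808 CPM in preSTC and 819.8 to 1134 CPM in preCTC. The list overlapped both baselines.

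Regulators of mesenchyme and mesothelium were represented by Prrx1 and Wt1. Prrx1, a homeobox factor of fibroblasts, measured 11.7, 16.7, 25.2 and 22.1 CPM in postSTC, 2.15, 2.83, 2.67 and 2.43 CPM in preSTC and 4.91, 9.31, 6.64 and 5.58 CPM in preCTC. The baselines did not overlap each other either, with preCTC between preSTC and postSTC. Wt1, a zinc finger factor of mesothelium, measured 1.93, 2.79, 4.21 and 7.45 CPM in postSTC, 0.0565, 0.106, 0.714 and 0.308 CPM in preSTC and 0.409, 0.859, 0.356 and 0.884 CPM in preCTC. Wt1 was the sole member of 12 mesothelial genes (8.33%, against 0.822% of all genes under the rule). The summed list was 5788, 5543, 5328 and 3530 CPM in postSTC against 5927 to 7806 CPM in preSTC and 6859 to 8581 CPM in preCTC, with Msln at 2.62 to 5.91 CPM in postSTC and 0.706 to 25.5 CPM at baseline. Hoxb2 and Hoxb4, positional homeobox genes picked after their values were seen, were members with Hoxb3 between them; Hoxb4 measured 4.32, 3.08, 3.13 and 7.22 CPM in postSTC, 1.98, 1.93, 1.80 and 2.15 CPM in preSTC and 0.76, 1.94, 1.12 and 1.82 CPM in preCTC. Gata2, a factor of mast cells and other lineages, measured 9.37, 9.90, 13.2 and 549 CPM in postSTC, 5.73, 5.15, 4.58 and 4.47 CPM in preSTC and 6.84, 5.21, 7.40 and 8.12 CPM in preCTC. Its mean was 29.2-fold preSTC with postSTC7 and 2.17-fold without it. Of 37 mesenchymal transcription factors Prrx1 was the only member (2.7%), and of 18 mast cell and type 2 genes Gata2 (5.56%).

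Stromal secreted proteins and enzymes added further members. Masp1, a protease of the lectin pathway of complement, measured 11.4, 14.6, 11.3 and 16.9 CPM in postSTC, 5.00, 8.26, 5.74 and 5.82 CPM in preSTC and 5.29, 4.15, 6.33 and 10.4 CPM in preCTC. Masp1 was the sole member of 28 complement and coagulation genes (3.57%, against 0.822% of all genes under the rule). C1qtnf7, a secreted protein related to C1q, measured 5.18, 8.44, 11.2 and 7.04 CPM in postSTC, 0.875, 1.98, 1.56 and 1.48 CPM in preSTC and 3.97, 2.35, 4.30 and 4.34 CPM in preCTC. Like Prrx1 it had preSTC lowest and postSTC highest without overlap. Fmo1, a flavin monooxygenase that oxidises drugs and other small molecules, measured 5.72, 2.95, 5.65 and 11.5 CPM in postSTC, 0.0847, 0.475, 0.529 and 0.196 CPM in preSTC and 0.409, 0.415, 0.411 and 0.442 CPM in preCTC. Fmo1 lies near Prrx1, with 4 genes of the table between them, and next to Fmo4, beyond which is Myoc, also a member. Flavin monooxygenase genes resemble each other, and how reads matching several of them were counted is not given in the sources used here.

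**Figure D2:**
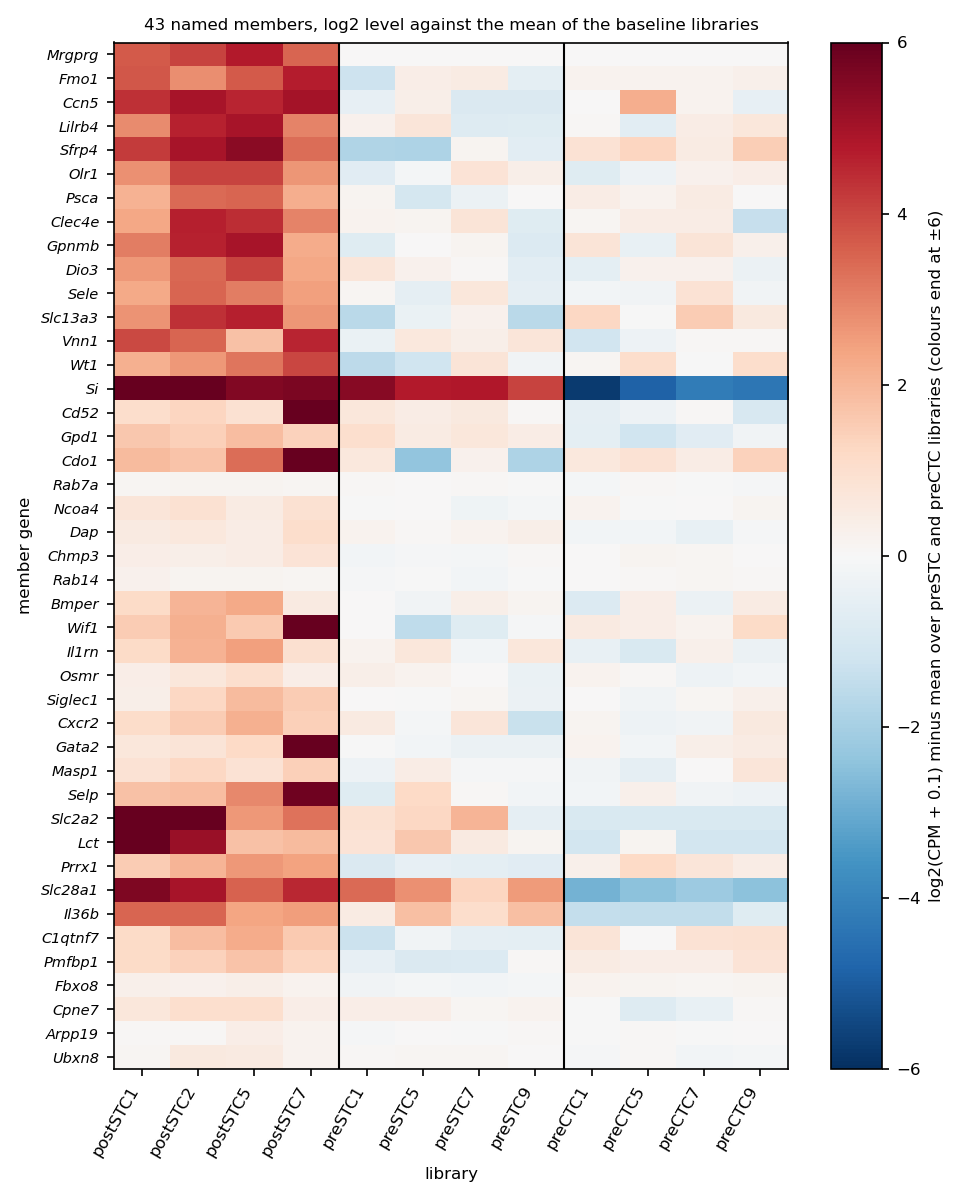
Rows are 43 members named by rule and columns the 12 libraries, with colour for log2(CPM + 0.1) minus its mean over the 8 baseline libraries, limited to 6 in either direction. The 4 postSTC columns are red in every row except the nearly flat ones such as Rab7a and Arpp19, and the baselines differ from each other most for Si and Slc28a1.

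Si, Lct, Slc2a2 and Slc28a1 stood further above preCTC than above preSTC, while Asah2 did the reverse. Si, sucrase-isomaltase, measured 1760.5, 1338, 252 and 268 CPM in postSTC, 236, 142, 149 and 87.4 CPM in preSTC and 0, 0.0831, 0.192 and 0.166 CPM in preCTC. The postSTC mean was 5.88-fold that of preSTC and 8209-fold that of preCTC, where 16 counts were found in all. The fold over preCTC takes in the difference between the baselines as well. Replicates 1 and 2 made up most of the gap, since replicates 5 and 7 were just above preSTC1. With TMM neither Si nor the transporter gene Slc28a1 met the rule.

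Lct, lactase, measured 249.8, 7.78, 0.614 and 0.69 CPM in postSTC, 0.282, 0.555, 0.212 and 0.14 CPM in preSTC and 0, 0.138, 0 and 0 CPM in preCTC. The level was carried by postSTC1, with postSTC5 and postSTC7 only slightly above preSTC5. Slc2a2, the sugar transporter GLUT2, measured 85.0, 38.2, 1.02 and 1.70 CPM in postSTC and 0.254, 0.343, 0.661 and 0.028 CPM in preSTC, and had no count in preCTC, so that its mean was at least 1500-fold higher than the floor of 3 counts there. Without postSTC1 the mean over preSTC was 10.2-fold for Lct and 42.4-fold for Slc2a2, against 218- and 97.8-fold with it. Asah2, the neutral ceramidase of the brush border, was also highest in postSTC1, at 98.6, 4.25, 6.90 and 14.6 CPM in postSTC and at most 4.14 CPM at baseline, 15.2-fold preSTC and 8.45-fold preCTC on the means. Its postSTC2 value was barely above that.

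Slc28a1, a sodium-driven nucleoside transporter, measured 34.2, 22.0, 8.07 and 15.9 CPM in postSTC, 7.26, 4.65, 1.64 and 4.00 CPM in preSTC and 0, 0.0277, 0.0548 and 0.0276 CPM in preCTC. G6pc1, the glucose-6-phosphatase that releases free glucose, and outside the naming rule, measured 15.7, 8.89, 4.65 and 2.21 CPM in postSTC, 0.452, 1.19, 0.0264 and 0.559 CPM in preSTC and 0.38, 0.0554, 0 and 0.166 CPM in preCTC. Both were highest in replicates 1 and 2. Vnn1, the pantetheinase of enterocyte membranes, measured 24.0, 17.2, 5.27 and 36.9 CPM in postSTC, 1.10, 2.30, 1.88 and 2.52 CPM in preSTC and 0.614, 1.16, 1.54 and 1.52 CPM in preCTC, with replicate 5 lowest. Of 23 absorptive enterocyte genes Slc2a2 and Lct were members (8.7%, against 0.822% of all genes under the rule). The list's summed level was 25580, 15820, 12040 and 11130 CPM in postSTC, 19660 to 21390 CPM in preSTC and 3573 to 10670 CPM in preCTC, so postSTC as a group did not stand above preSTC. The part of the enterocyte content of each library in these members was not tested.

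Among enzymes of intermediary metabolism, Gpd1 was even across postSTC and Cdo1 was not. Gpd1, cytosolic glycerol-3-phosphate dehydrogenase, measured 363, 314, 428 and 313 CPM in postSTC, 235, 165, 191 and 161 CPM in preSTC and 79.7, 52.2, 74.4 and 103 CPM in preCTC. The means were 355 ± 54.5, 188 ± 34.2 and 77.2 ± 20.8 CPM (SD, n = 4), and every preSTC library was also above every preCTC library. Cdo1, cysteine dioxygenase, which starts the breakdown of cysteine to taurine, measured 53.4, 46.4, 145 and 1171 CPM in postSTC, 21.7, 2.67, 16.8 and 3.83 CPM in preSTC and 21.9, 26.3, 19.7 and 37.8 CPM in preCTC. Its mean over preSTC was 31.5-fold, and 7.26-fold without postSTC7.

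Detoxifying and peroxisomal enzymes outside the naming rule stood above baseline by smaller factors. Cat, catalase, measured 159, 152, 174 and 138 CPM in postSTC and at most 115 CPM at baseline, and Phyh, a peroxisomal hydroxylase of phytanic acid, 97.1, 78.0, 98.3 and 113 CPM and at most 70.8 CPM. Ephx1, microsomal epoxide hydrolase, measured 83.4, 99.6, 50.8 and 45.1 CPM and at most 40.6 CPM, and Maob, monoamine oxidase B, 59.8, 40.8, 28.5 and 30.4 CPM and at most 24.1 CPM. Gsta1, a glutathione transferase with close copies in the genome, reached 23.6, 53.2, 64.9 and 120.4 CPM and at most 19.7 CPM. Cat and Phyh were nearly level across the postoperative libraries, while Gsta1 was highest in postSTC7. Slc13a3, a sodium-driven dicarboxylate transporter named by the rule, measured 1.86, 6.13, 7.55 and 1.79 CPM in postSTC, 0, 0.132, 0.264 and 0 CPM in preSTC and 0.614, 0.194, 0.768 and 0.359 CPM in preCTC, with replicates 2 and 5 again on top.

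At the other end of the range were abundant housekeeping genes of the endosome and autophagy. Rab7a, the GTPase of late endosomes and lysosomes, measured 320.2, 327, 322 and 311 CPM in postSTC, 303, 296, 303 and 289 CPM in preSTC and 267, 308, 291 and 275 CPM in preCTC, 1.07-fold and 1.12-fold on the means. Rab14, a GTPase of recycling endosomes, measured 176, 163, 163 and 161 CPM in postSTC, 129 to 145 CPM in preSTC and 149.8 to 157 CPM in preCTC. These differences are a small part of the level, and neither gene met the rule with TMM. Ncoa4, the receptor that delivers ferritin to autophagy, was wider apart at 227, 255, 192 and 259 CPM in postSTC, 133, 136, 113 and 126 CPM in preSTC and 156, 134, 139 and 151 CPM in preCTC. Chmp3, part of the membrane-cutting ESCRT-III complex, measured 154, 151, 158 and 205 CPM in postSTC, 106 to 121 CPM in preSTC and 118 to 129 CPM in preCTC, and Dap, a negative regulator of autophagy, 153, 163, 143 and 222 CPM, 109.9 to 137 CPM and 77.3 to 101 CPM. Dap too was lost with TMM.

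Of the 148 genes, 52 varied by less than 1.5 times between the highest and lowest postSTC library, and 31 of these lay under 1.5-fold over both baselines. The 31 held Rab7a, Rab14, Rab11b, Cul1, Washc2c, Bcap31, Kpna4 and Rb1cc1, with postSTC means from 10.2 to 320.2 CPM and a highest fold of 1.42 over preSTC and 1.45 over preCTC. Of the 31, 11 still met the rule with TMM, while 67 of the 71 genes at least 2-fold over both did. By annotation in the deposited table, 9 of 137 annotated members carried the term lysosome (6.57%, against 2.02% of 13145 annotated genes at 0.5 CPM or more in every postSTC library), 1 lysosomal membrane (0.73% against 1.35%), 18 extracellular space (13.1% against 6.22%) and 26 nucleus (19.0% against 30.4%). These terms were picked after the values were seen. Of the 9 genes with the term lysosome, Glmp, P2ry2, RGD1359108, Rab14 and Rab7a did not meet the rule with TMM.

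The postoperative libraries differed widely from each other for some of these genes. The highest over the lowest postSTC library was 1.82 at the median, against 1.64 over 14019 genes at 0.5 CPM or more in every postSTC library, and it reached 10 or more in 10 members. The lowest postSTC library was replicate 1 for 48 genes and replicate 7 for 43, and the highest was replicate 7 for 54. A mean of replicates 2 and 5 at least 2 times that of replicates 1 and 7 was found for 20 members (13.5%, against 5.86% of those genes), among them Gpnmb, Lilrb4, Clec4e, Olr1, Tm4sf19, Sfrp4, Slc13a3, Sctr and Il1rn. Replicate 1 at least 3 times the mean of the rest marked Lct, Asah2 and Slc2a2 (2.03% against 0.556%).

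**Figure D3:**
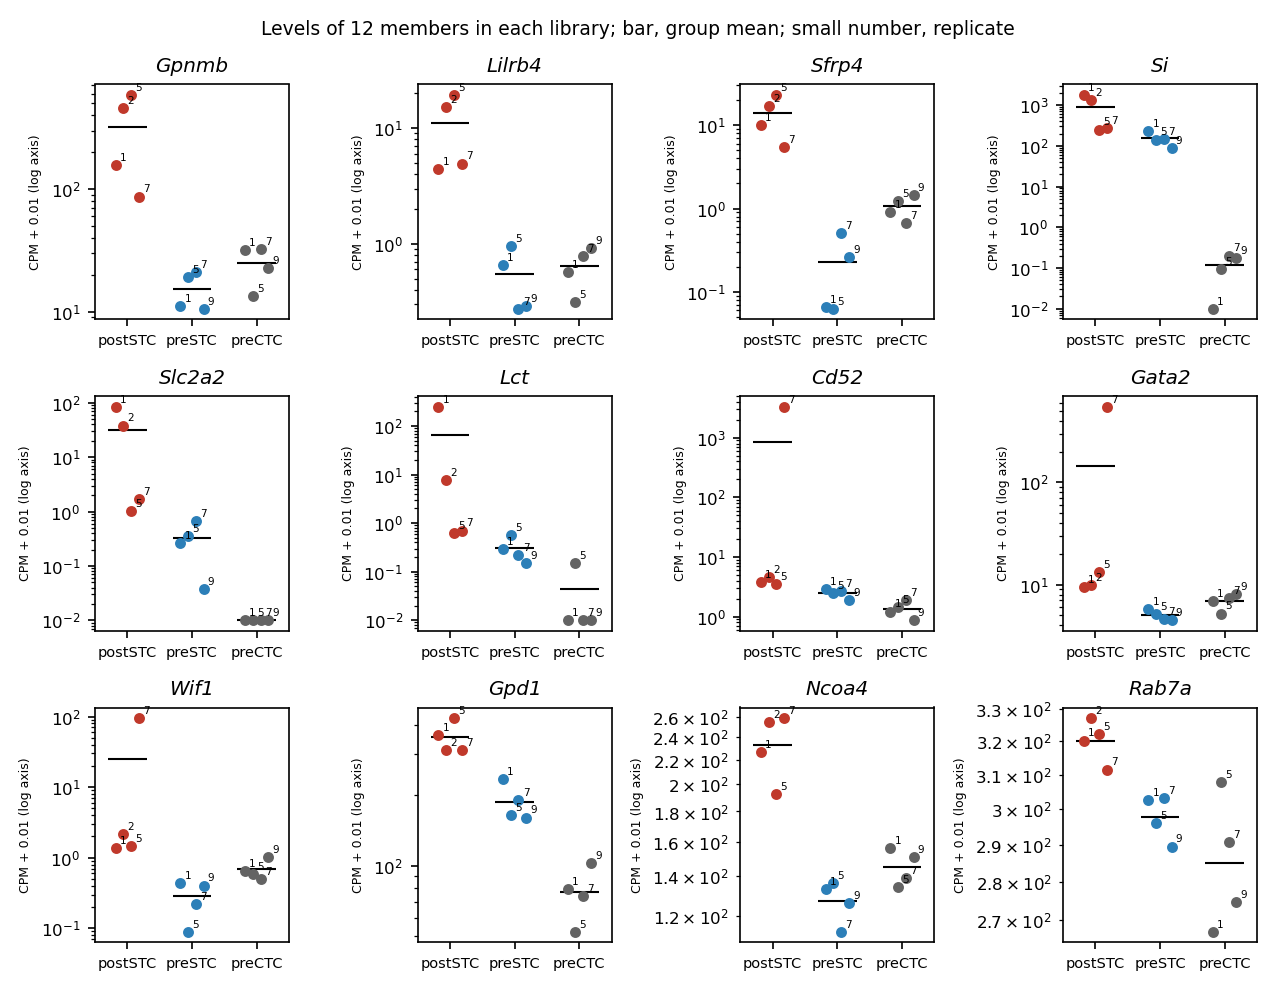
Each panel shows 1 gene, with CPM + 0.01 on a log axis for the 4 libraries of postSTC (red), preSTC (blue) and preCTC (grey); small numbers are replicates and bars are group means. Gpnmb and Lilrb4 have replicates 2 and 5 on top, Slc2a2 and Lct replicate 1, Cd52, Gata2 and Wif1 replicate 7, and Gpd1 and Ncoa4 are even.

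Replicate 7 at least 3 times the mean of the rest marked 10 members (6.76% against 2.8%): Cd52, Wif1, Gata2, Ankrd35, Cdo1, Selp, Hoxb2, Aloxe3, Ankrd6 and Myoc. Cd52, a small surface glycoprotein of lymphocytes and of the male genital tract, measured 3.79, 4.54, 3.45 and 3322 CPM in postSTC, 2.91, 2.48, 2.70 and 1.90 CPM in preSTC and 1.20, 1.41, 1.86 and 0.856 CPM in preCTC. Without postSTC7 its mean was 1.57-fold preSTC and 2.95-fold preCTC, against 334- and 625-fold with it. The 12 accessory gland markers in the table, the 13 dropped genes aside, summed to 68.0, 87.2, 158 and 851 CPM in postSTC, 42.0 to 64.9 CPM in preSTC and 47.4 to 265.5 CPM in preCTC. In postSTC7, 7 of the 12 were over 3 times every other postSTC library, among them Msmb at 192.5 CPM where no other library passed 0.16 CPM, and Pate2, Sbp and Andpro were at 0 in all baselines. Postoperative libraries 1, 2 and 5 and preSTC7 held 0.0391 to 0.0435% of the accessory counts of postSTC7. When that share of each postSTC7 count was subtracted from the same gene in those 4 libraries, 147 of the 148 genes still met the rule, and Cd52 did not, at 2.565 CPM in its lowest postSTC library against 2.907 CPM in its highest baseline library. The counts of postSTC7 itself were left unchanged, and little was taken from the other libraries. The subtraction therefore cannot show which members owe their level in postSTC7 to gland tissue. That part was not tested for the other 9 genes, nor for the rest of the 54 members highest in postSTC7.

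Fat markers were high in replicates 1, 2 and 5 and low in replicate 7. None of 15 adipocyte genes was a member, against 0.822% of all genes under the rule. However, 8 of them (Plin1, Plin4, Cidec, Lep, Retn, Fabp4, Lipe and Dgat2) stood above all baselines in the other 3 postSTC libraries. The summed level was 1564, 1652, 3377 and 352 CPM in postSTC, 447 to 944 CPM in preSTC and 685 to 1125 CPM in preCTC. Adipoq, the adipocyte hormone adiponectin, measured 180.3, 214, 545 and 2.53 CPM in postSTC. It measured 9.37 to 119.8 CPM in preSTC and 97.9 to 235.2 CPM in preCTC, so preCTC9 was above postSTC1 and postSTC2. Gpnmb and Sfrp4, members highest in replicates 2 and 5, measured 87.0 and 5.48 CPM in replicate 7, above every baseline library as the rule requires. The part of fat in these members was not tested. Leaving out postSTC7 lets 358 genes meet the rule, the 148 among them by construction, and 7 of the 34 macrophage lysosome and lipid genes in place of 1.

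**Figure D4:**
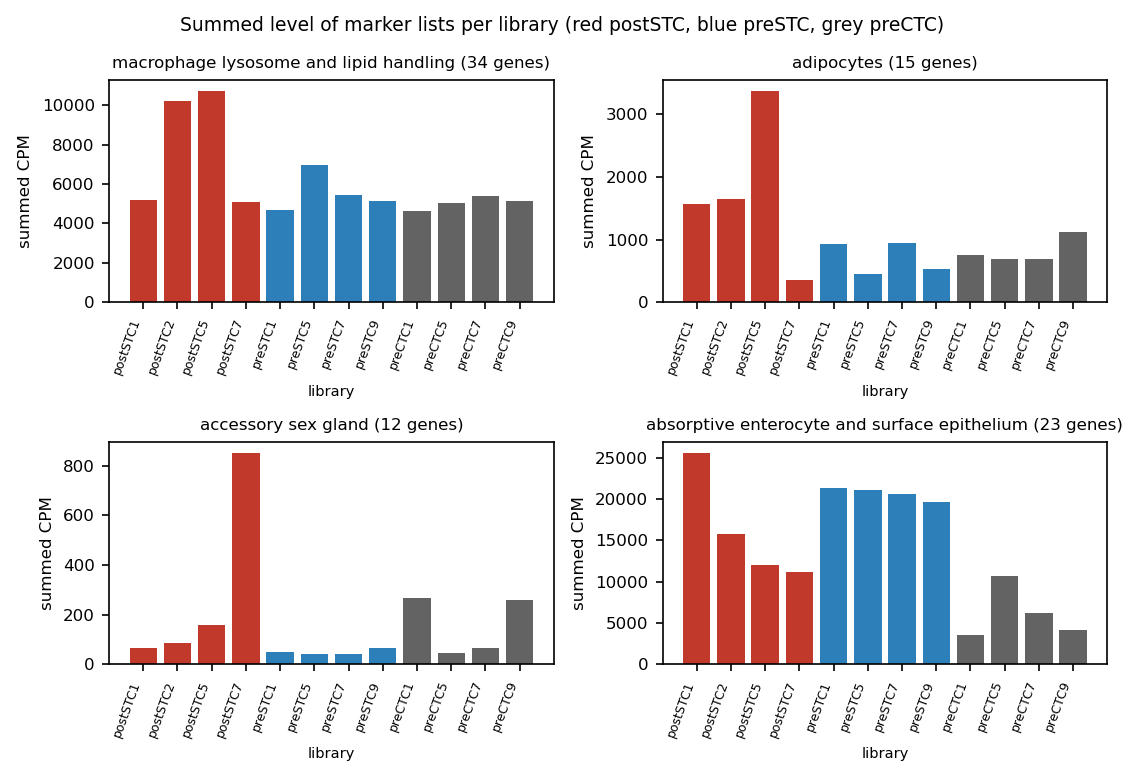
Bars give the summed CPM of the genes of a marker list in each of the 12 libraries (red postSTC, blue preSTC, grey preCTC), from a baseline of 0. The macrophage list is highest in postSTC2 and postSTC5, the adipocyte list in postSTC5 and lowest in postSTC7, the accessory gland list in postSTC7, and the enterocyte list in postSTC1 with preCTC low.

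The rule did not use the difference between the baselines, so that difference could be tested. In edgeR's quasi-likelihood test of preSTC against preCTC, with Benjamini-Hochberg adjustment over 15704 genes, 2995 genes (19.1%) were higher in preSTC and 3082 (19.6%) lower. Of the 148 members, 16 (10.8%) were higher, 6 (4.05%) were lower and 126 were not called, and the median log2 fold change was 0.16 against -0.02 over all genes. A gene far apart in the baselines has to clear the higher of them to be a member, so nothing is read from these shares.

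Brush border genes led the members higher in preSTC. The log2 fold change was 10.54 ± 0.98 for Si (SE, edgeR adjusted p = 1.38e-05), 7.27 ± 0.77 for Slc28a1 (adjusted p = 3.21e-05), 3.29 ± 0.45 for Il36b (adjusted p = 0.000204) and 1.45 ± 0.19 for Gpd1 (adjusted p = 0.000173). In each of these the 4 preSTC libraries were all above the 4 preCTC libraries. The other 12 were Ttc39c, Plpp1, Rnf144b, Cpne7, Pik3r5, Dap, Bst2, Ift20, Tcp11l1, Dennd6a, LOC100911664 and Cul1. Among the members lower in preSTC, log2 fold changes were -2.10 ± 0.63 for Sfrp4 (edgeR adjusted p = 0.0208), -1.24 ± 0.26 for Prrx1 (adjusted p = 0.003), -1.19 ± 0.30 for C1qtnf7 (adjusted p = 0.00874) and -0.999 ± 0.31 for Pmfbp1 (adjusted p = 0.0239), with Gask1b and Atf5 the remaining members. Pmfbp1, a sperm tail protein gene, measured 1.70, 2.04, 2.60 and 1.89 CPM in postSTC, 0.48, 0.343, 0.37 and 0.755 CPM in preSTC and 1.05, 0.969, 0.987 and 1.35 CPM in preCTC. Lct and Slc2a2, at or near 0 in preCTC, were not called (edgeR adjusted p = 0.426 and 0.148), nor was Gpnmb (log2 fold change -0.54 ± 0.51, adjusted p = 0.421). The fit estimates the spread of a gene from all 12 libraries, so a wide postSTC range enters the SE of this contrast. Slc2a2, for example, had a log2 fold change of 6.58 ± 3.31. A gene of wide postSTC range that was not called may still differ between the baselines. Without preCTC9 the members called lower were 3. Sfrp4 was not called without preSTC1, preSTC5 or preCTC9 (edgeR adjusted p = 0.0538, 0.0526 and 0.0522) or in limma voom (adjusted p = 0.0915), and Pmfbp1 was not called without preSTC1, preSTC5, preSTC7 or preCTC9 (edgeR adjusted p = 0.0517, 0.0696, 0.0701 and 0.0653). DESeq2 called 7 named members that edgeR did not, among them Slc2a2, higher in preSTC (DESeq2 adjusted p = 0.00251).

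**Figure D5:**
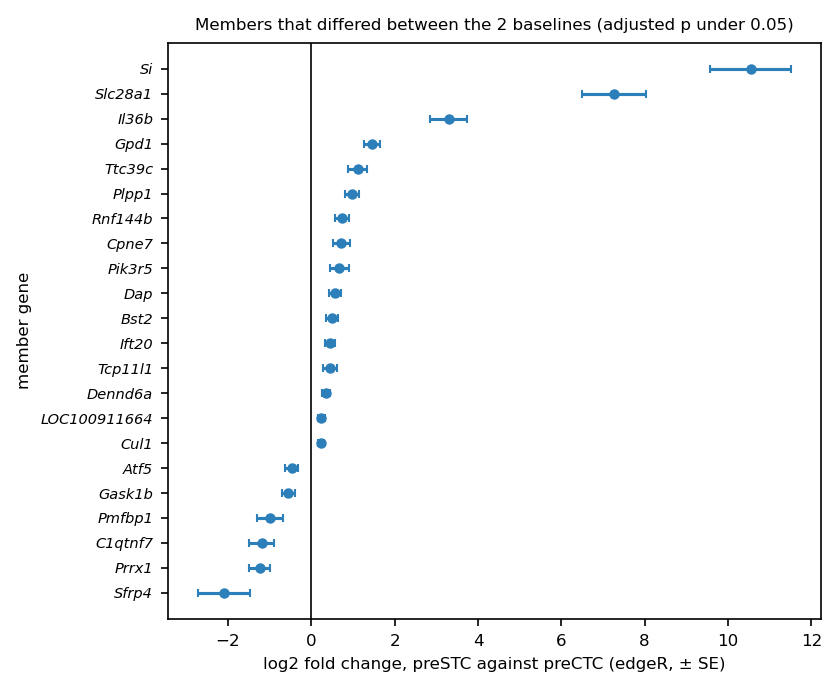
Points are the log2 fold changes of preSTC against preCTC from edgeR for the 22 members at an adjusted p under 0.05, with bars of 1 SE and a line at 0. The 16 genes to the right are higher in preSTC, Si furthest at 10.54, and the 6 to the left are lower, Sfrp4 furthest.

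Across the 36 gene lists, 12 held a member and 24 held none. None of 22 proliferation genes, 19 smooth muscle genes, 23 secretory epithelial genes, 23 T and NK cell genes, 19 B and plasma cell genes or 15 genes of MHC class II presentation met the rule, and with 0.822% of all genes meeting it, a count of 0 in lists of this size is near that background. For smooth muscle this sits beside summed levels of 10400 to 15120 CPM in postSTC, 5380 to 8384 CPM in preSTC and 16990 to 28430 CPM in preCTC, between the baselines. List genes that edgeR called higher than both baselines without meeting the rule were Thbs2, Mmp9, Lrrc15, Ccl3, Ccl9, Il33, Tpsb2, Gata3, C7 and Serping1, of which Tpsb2 alone was still called with the replicate block. Of the 820 list genes in the table, 19 were members (2.32%, against 0.822% of all genes), and since the lists were drawn up with results known, nothing is read from that share. In gene order on GRCr8, 10 pairs of members lay within 5 genes of each other, among them Zpbp2 and Ormdl3, and C1qtnf7 and Cpeb2, with no gene of the table between, and Rab7a and Gata2 with Rpn1 between.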

How the data were processed

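Polyadenylated RNA of 12 rat intestine samples was measured by RNA sequencing after TRIzol extraction and a VAHTS Universal library kit, per the labels' protocols. The authors deposited whole read counts per gene in 1 table, with 1 column per library, and FPKM values in another. Per the submitters' processing notes fastp, HISAT2, HTSeq and the assembly mRatBN7.2 were used, with no further settings. The series' design text describes pig ileum and other tools, does not match the rat genes of the table, and was not used. FPKM, which the authors derived from the same counts, was proportional to count over column total within each gene (largest relative deviation 1.8e-13). It entered as an alternative only. Whether strand was used, and what became of reads with several matches, is not given in those notes.

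Members were found from CPM of the column total without 13 accessory gland genes. The members and the 36 gene lists were chosen with earlier results of these data known. Promoter sequences, gene order and names came from RefSeq on GRCr8, to which 147 of 148 members matched. This assembly differs from that of the counts.

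For the members only preSTC against preCTC was tested, and contrasts with postSTC from the same model are given as counts of genes or for genes outside the members. A quasi-likelihood model in edgeR 4.0.16 (R 4.3.3), with group as its only term, TMM factors and filterByExpr, was fitted to all 12 libraries, with two-sided tests and Benjamini-Hochberg adjustment over 15704 genes. The SE is the absolute log2 fold change over the square root of the F statistic. Replicates are not labelled as distinct animals, and p-values then reflect the spread among these libraries, which may be technical. DESeq2 1.42.0, limma 3.58.1 (voom), no filter, a fit of the 8 baseline libraries, replicate blocks and each library left out were alternatives. The model was tested on simulated counts. Folds against a group at 0 use a floor of 3 counts over that group, and intervals and floors cover counting error only.

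Named members, with a symbol not starting LOC or RGD, were the 15 with the largest ratio of lowest postSTC to highest baseline CPM plus 0.1, the 10 with the highest postSTC mean, up to 4 per list, the 4 largest baseline differences in each direction, the 4 nearest the threshold on either side, and the 4 with the widest postSTC range. This gave 44 members, of which 1 is not reported here. Any other member named was chosen after its values were seen.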

Additional observations from a re-analysis of the deposited data

Results flagged for a closer look

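Among the 44 named members, each with 3 groups of 4 libraries, 13 single libraries stood far from the other 3 of their group (Dixon's ratio above its 95% value). Chance flags about 1 in 20 groups, and 132 groups were looked at. That rate is no yardstick here, since some members were named for their wide postSTC range and several flags share 1 library. Nothing is read from the number of flags. Of the 13, 6 were in postSTC7. They were Cd52 at 3321.5 CPM, Cdo1 at 1171 CPM, Gata2 at 549 CPM, Chmp3 at 205 CPM, Wif1 at 94.9 CPM and Selp at 65.4 CPM, each the highest library of postSTC. In postSTC1, Lct at 249.8 CPM was far above the other postSTC libraries, and Rab14 at 176 CPM was higher by a small amount, against 161 to 163 CPM in the other 3. For Cd52, Cdo1, Gata2, Wif1, Selp and Lct the mean of postSTC therefore describes 1 library more than the group.

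In preCTC, 5 values stood apart upward at low levels: Ccn5 at 0.720 CPM and Lct at 0.138 CPM in preCTC5, Selp at 1.30 CPM in the same library, Sele at 0.165 CPM in preCTC7 and Il36b at 0.304 CPM in preCTC9. Each of these remained below every postSTC library of its gene, as the rule requires. Outside the measurements compared, the 13 accessory gland genes took 44.8% of the counts of postSTC7, far above the share in any baseline library.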

How the results depend on the processing

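The count of 148 members became 51 with no gene dropped before CPM, 41 with FPKM in place of CPM (at the same threshold number) and 23 where the lowest postSTC library had to be 1.5 times the highest baseline library. It was 167 at 0.1 CPM, 134 at 1 CPM and 144 with TMM, of which 109 were shared. Leaving out 1 library gave 158 to 413 genes, more by construction, with 413 without postSTC1, 358 without postSTC7, 252 without postSTC5 and 226 without preCTC9. Leaving out postSTC1 and postSTC7 together, an alternative chosen after seeing the data as was the subtraction of accessory gland counts, gave 1085. The median log2 ratio to preSTC was 1.02 with TMM against 1.14, and 1.04 to 1.21 with 1 library left out. The median ratio to preCTC was 1.17 with TMM against 1.11, and 1.05 to 1.23. Genes at least 2-fold over both numbered 70 with TMM and 64 to 73 with 1 library left out, against 71.

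Between the baselines, members higher in preSTC numbered 16 in edgeR, 27 in DESeq2, 15 in limma voom and 13 to 17 with 1 library left out. Members lower numbered 6, 12 in DESeq2, 10 in edgeR on the 8 baseline libraries alone, and 3 to 7 with 1 library left out, 3 without preCTC9. With the replicate block, 15 were higher and 6 lower in the fit of all 12 libraries, and 23 and 12 in the fit of 8. The labels give the baselines the same numbers without saying what a number marks, and same-numbered libraries correlated in their deviations at 0.222, -0.0278, 0.171 and 0.145, and preSTC5 correlated best with preCTC9. Not every pair is over 0.1, so the block is not taken as a pairing of the baselines. The 3 pairs shared by postSTC and preSTC were at 0.236, 0.158 and 0.168, and those shared by postSTC and preCTC at 0.22, -0.0159 and 0.0544. With the block, an alternative also added after seeing the data, genes higher in postSTC than in both baselines numbered 84 against 164, with 62 shared, and lower ones 37 against 60, with 22 shared; the cause was not tested. Sfrp4 was not called with the block in the fit of 12 (edgeR adjusted p = 0.0565). The 10 named members called between the baselines kept their direction in every alternative run. Of those not called, 10 changed sign in some, given here as log2 changes. With 1 library left out, Chmp3 ran from -0.0311 to 0.0342, Clec4e from -0.0571 to 0.679, Cxcr2 from -0.133 to 0.581, Fmo1 from -0.581 to 0.0823, Lilrb4 from -0.496 to 0.134, Masp1 from -0.0748 to 0.37, Ncoa4 from -0.0678 to 0.0141, Rab14 from -0.0086 to 0.0403, Sele from -1.46 to 0.85 and Siglec1 from -0.0415 to 0.14. In the fit of 8, Chmp3 was -0.0115 and, with the replicate block, -0.0111, Rab14 was -0.00736 and -0.00752, and Cxcr2 in limma voom was -0.115. With 4 libraries a group, and most margins under 1.2, membership of the small-fold genes is the least certain result. Depth limits Sele, Cxcr2, Mrgprg and Dio3 most, with 129, 140, 206 and 239 counts over the 4 postSTC libraries.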

Other observations

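Several members outside the named ones belong to recognisable cell types or functions. Avil and Sh2d7, genes expressed in tuft cells of the gut epithelium, were both members. Their lowest postSTC library exceeded the highest baseline library by factors of only 1.07 and 1.08, and neither met the rule with TMM. Avil measured 27.0, 30.1, 15.9 and 19.2 CPM in postSTC and at most 14.9 CPM at baseline, and Sh2d7 ranged from 22.7 to 45.3 CPM after operation with at most 21.1 CPM before. Itgbl1, a secreted integrin-like protein of fibroblasts, measured 11.7, 30.7, 41.1 and 21.5 CPM in postSTC, with preCTC9 at 11.7 CPM just below the lowest of them. Casq2 and Jph1, which serve calcium storage and release in muscle, stood at 14.9 and 2.59 CPM on average in postSTC. These levels were 2.12- and 1.63-fold their preSTC means and 1.46- and 1.70-fold their preCTC means. The lowest postSTC library of Casq2 was 1.03 times its highest baseline library, and Jph1 did not meet the rule with TMM. Npr1, the receptor for atrial natriuretic peptide, ranged from 8.81 to 11.9 CPM after operation and reached 8.75 CPM at baseline. Genes were chosen here after their values were seen, and they do not stand for a cell type. None of the 19 smooth muscle, 28 skeletal and cardiac muscle or 23 secretory epithelial genes on the lists was a member. That is near the background of 0.822% of all genes.

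Acer2 and Asah2, ceramidases of the Golgi and of the cell surface, and Ormdl3, a regulator of the first step of sphingolipid synthesis, were all members. Acer2 ranged from 12.5 to 32.2 CPM in postSTC with at most 11.4 CPM at baseline. Ormdl3 ranged from 77.1 to 143.9 CPM, with at most 65.6 CPM at baseline, and its postSTC mean was 1.72-fold preSTC and 1.79-fold preCTC.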
